A study of Mus musculus with 5 samples.

Results

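Neurexins, neuroligins and leucine-rich repeat transmembrane proteins (LRRTMs) are adhesion proteins that join the 2 sides of a synapse. Here 9 of their genes are described in brain RNA from 5 old mice. The members are the neurexins Nrxn2 and Nrxn3, the neuroligins Nlgn1, Nlgn2 and Nlgn3, and Lrrtm1, Lrrtm2, Lrrtm3 and Lrrtm4. They were taken by symbol from the 47729 genes of the deposited count table, and all 9 were found and passed the filter of a mean count of at least 10. The samples are brains of male C57BL/6 mice aged 30 months, with no treatment or genetic change named in the labels, and form a single group. They are called mice 7, 8, 9, 10 and 11 after their label numbers. The question is how much RNA of each member the old brain holds and how far that differs between mice. No younger animals were analysed here, so nothing below is a change with age. Beyond the series title, no label states that each sample is a separate animal. Errors and p-values therefore describe differences among 5 samples, some of which may be technical.

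Neurexins sit in the presynaptic membrane and reach across the cleft to ligands on the receiving neuron. Neuroligins and LRRTMs are such ligands: Nlgn1 acts mainly at excitatory synapses, Nlgn2 at inhibitory synapses and Nlgn3 at both, while LRRTMs act at excitatory synapses. Inside the cell these receptors bind scaffold proteins that hold neurotransmitter receptors in place. Each neurexin gene makes long (alpha) and short (beta) forms and many splice variants, which a count per gene does not separate.

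The 5 libraries held 15392006 to 18723390 counts. Libraries 7 and 11 stood apart from the rest. Chi-square per gene was 6.97 to 9.55 between mice 8, 9 and 10, 23.5 to 32.6 between mouse 7 and those 3, and 42.0 to 102 between mouse 11 and any other. Deviations in both went with the base composition of the RNA. Among the 3253 tested genes with the lowest GC content (up to 43.5% G and C), the median deviation from the mean of the 5 mice was 0.34 in mouse 7 and -0.42 in mouse 11. Deviations are in log2 CPM, the log2 of counts scaled to the library total after adjustment by the trimmed mean of M-values (TMM). Among the 3253 genes with the highest GC content (from 55.3%) it was -0.13 in mouse 7 and 0.50 in mouse 11. The members cover this range, from 38.4% in Lrrtm4 to 62.4% in Nrxn2 by the longest transcript, so the members' deviations, their test and the spread of their ratios are given with and without the GC and length trends of the libraries. RPKM levels and shares were not corrected for these trends.

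The paralogs differ in base composition even where they encode the same protein stretch, and the following windows are shown because the values of the members in mice 7 and 11 differed by GC content. Each is a run of 20 codons that the genes of a subfamily translate identically, with a G or C at the last base of a codon in capitals (5′ to 3′ on the coding strand, GENCODE M21 transcripts on GRCm38).
Nrxn2: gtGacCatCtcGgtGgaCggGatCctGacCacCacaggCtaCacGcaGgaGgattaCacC
Nrxn3: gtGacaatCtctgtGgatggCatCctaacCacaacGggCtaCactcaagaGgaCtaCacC
Nlgn1: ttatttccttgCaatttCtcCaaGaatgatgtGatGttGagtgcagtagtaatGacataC
Nlgn2: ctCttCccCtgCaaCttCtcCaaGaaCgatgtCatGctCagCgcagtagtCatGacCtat
Nlgn3: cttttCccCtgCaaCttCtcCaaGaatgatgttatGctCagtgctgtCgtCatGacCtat
These windows lie in single coding exons at chr19:6472258-6472317 (plus strand), chr12:89193046-89193105 (plus), chr3:25435876-25435935 (minus), chr11:69826767-69826826 (minus) and chrX:101318636-101318695 (plus). Of the 20 last codon bases, 18 were G or C in Nrxn2 and 13 in Nrxn3. In the neuroligins 9 were in Nlgn1, 16 in Nlgn2 and 13 in Nlgn3. In the 7 codons that Lrrtm1, Lrrtm3 and Lrrtm4 translate identically the last base was G or C in 4, 6 and 2, an order that differs from that of their whole coding sequences. Over the whole coding sequence, the last base was G or C in 77.1% of codons of Nrxn2 and 63.1% of Nrxn3, in 43.4% of Nlgn1, 73.7% of Nlgn2 and 63.1% of Nlgn3, and in 78.0%, 49.9%, 63.7% and 58.4% of Lrrtm1 to Lrrtm4.

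All 9 are protein-coding genes. Nrxn2 (ENSMUSG00000033768) spans 6418731 to 6544169 on chromosome 19, and Nrxn3 (ENSMUSG00000066392) 88722876 to 90334935 on chromosome 12. Nlgn1 (ENSMUSG00000063887) lies at 25426215 to 26332460 on chromosome 3, Nlgn2 (ENSMUSG00000051790) at 69823122 to 69837784 on chromosome 11 and Nlgn3 (ENSMUSG00000031302) at 101299168 to 101325963 on chromosome X. Lrrtm1 (ENSMUSG00000060780) and Lrrtm4 (ENSMUSG00000052581) are on chromosome 6, from 77242689 to 77257791 and from 80018877 to 80810143. Lrrtm3 (ENSMUSG00000042846) lies at 63928472 to 64090277 on chromosome 10. Spans ran from 6.02 kb in Lrrtm2 (ENSMUSG00000071862, chromosome 18) to 1612 kb in Nrxn3, and summed exon lengths from 3033 bases in Lrrtm1 to 13812 in Nrxn2.

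Nested genes limit how some counts can be read. Lrrtm1, Lrrtm2 and Lrrtm3 each lie inside an alpha-catenin gene, on the opposite strand: Ctnna2, Ctnna1 and Ctnna3, which encode links between cadherins and actin. Their exons overlapped only for Lrrtm2, over 1.58% of its exon bases. Ctnna1 had 23.3 ± 3.17, Ctnna2 16.7 ± 4.26 and Ctnna3 0.602 ± 0.117 RPKM (reads scaled to gene length and library total; mean ± SD, n = 5 here and below). Other annotated genes overlapped 41.2% of the exon bases of Nlgn3 (Gm21986, same strand), 25.1% of Lrrtm4 (Gm4409, opposite strand) and 9.16% of Nlgn1 (A830092H15Rik, opposite strand). These had 3 to 9, 0 and 5 to 15 counts in a library. The rule by which reads in such overlaps were assigned is not given in the sources used here. If such reads were left uncounted, the levels of Nlgn3 and Lrrtm4 would be too low, because RPKM divides by all exon bases. These 2 levels, and ratios that use them, are therefore less certain than the others. No stretch of 50 bases was shared between transcripts of any 2 members, so a read of that length that matches 1 member exactly does not match another.

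Nlgn2 was the most abundant member per length, and Lrrtm4 the least. Nlgn2, the neuroligin of inhibitory synapses, had 34.4, 35.3, 33.6, 35.1 and 55 RPKM in mice 7 to 11, a mean of 38.7 ± 9.14. Mice 7 to 10 thus lay close together and mouse 11 lay above them. At this level 92.6% of the 16318 tested genes were lower than Nlgn2. Nrxn3 had 23.5, 22.6, 24.0, 21.7 and 19.4 RPKM, a mean of 22.3 ± 1.80, and had the smallest spread of all members, with a coefficient of variation of 8.09%. Nrxn2, the other neurexin, had 3.97, 3.90, 3.83, 4.28 and 6.61 RPKM, a mean of 4.52 ± 1.18, and again stood out in mouse 11.

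The neuroligins Nlgn1 and Nlgn3 were close to each other in mean level but not in pattern. Nlgn1, of excitatory synapses, had 7.54, 5.19, 6.13, 4.64 and 3.87 RPKM, a mean of 5.47 ± 1.42, with its highest value in mouse 7 and its lowest in mouse 11. Nlgn3, which is also made by glia, had 3.83, 5.69, 5.97, 5.83 and 6.22 RPKM, a mean of 5.51 ± 0.958. Here mouse 7 was the lowest and the other 4 lay within a narrow range. The counts behind these values were 973 to 1573 for Nlgn1 and 552 to 1079 for Nlgn3.

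Among the LRRTMs, Lrrtm1 and Lrrtm2 both bind neurexins, and Lrrtm4 binds heparan sulphate proteoglycans. Lrrtm1 had 15.1, 14.5, 14.5, 16.8 and 24.2 RPKM, a mean of 17.0 ± 4.12, highest in mouse 11. Lrrtm2 had 17.5, 10.1, 10.2, 10.7 and 5.72 RPKM, a mean of 10.8 ± 4.21. It ran the other way, with its peak in mouse 7 and its minimum in mouse 11. Its highest value was 3.05 times its lowest, the widest range of the 9. Lrrtm3 had 12.6, 10.9, 11.4, 9.79 and 8.53 RPKM, a mean of 10.6 ± 1.55, with the same extremes as Lrrtm2 over a narrower range. Lrrtm4 had 2.88, 3.62, 3.56, 3.54 and 3.21 RPKM, a mean of 3.36 ± 0.316, lowest in mouse 7. Lrrtm4 rests on 275 to 369 counts a library, the fewest of the members, and 43.1% of tested genes were lower.

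**Figure D1:**
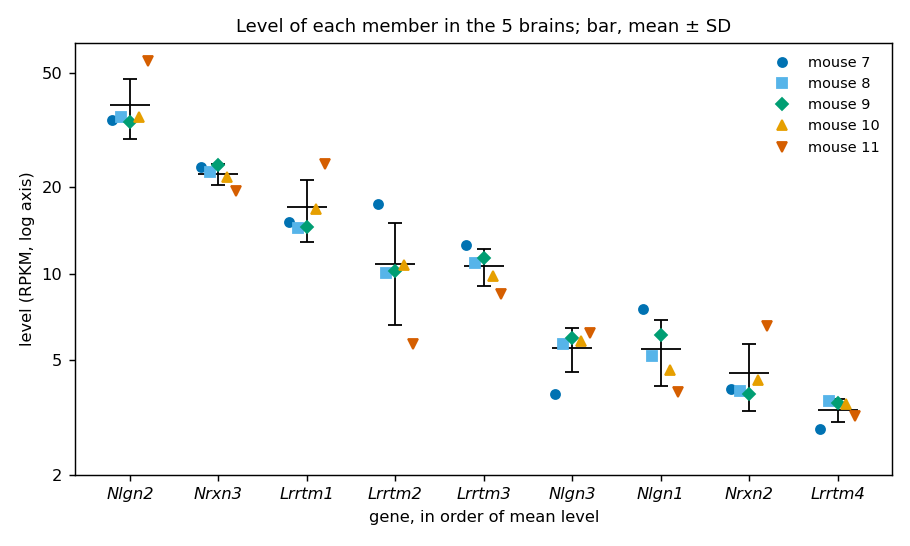
Level of each member in RPKM (log axis) in the 5 brains, in order of mean level; symbols are mice and bars are the mean ± SD. Mouse 11 is the highest for Nlgn2, Lrrtm1, Nlgn3 and Nrxn2, and the lowest for Nrxn3, Lrrtm2, Lrrtm3 and Nlgn1.

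The order of the mean levels was Nlgn2, Nrxn3, Lrrtm1, Lrrtm2, Lrrtm3, Nlgn3, Nlgn1, Nrxn2 and Lrrtm4. With the annotation's exon lengths the mean of Lrrtm2 was 10.2 RPKM, below that of Lrrtm3 at 10.6. Neighbours that kept their order in 5 of 5 libraries were Nlgn2 over Nrxn3, by 1.71-fold, Lrrtm3 over Nlgn3, by 1.94-fold, and Nrxn2 over Lrrtm4, by 1.32-fold. Nrxn3 over Lrrtm1, Lrrtm1 over Lrrtm2 and Nlgn1 over Nrxn2 kept it in 4 of 5. Lrrtm2 with Lrrtm3 kept it in 2 of 5 and Nlgn3 with Nlgn1 in 3 of 5. In these 5 pairs the mean log2 ratio was smaller than its SD, so none of them differed beyond the spread. Leaving out the libraries that stood apart left Nlgn2 the highest and Lrrtm4 the lowest. Without mouse 11 the mean of Nlgn2 was 34.6, of Lrrtm1 15.2, of Lrrtm2 12.1 and of Nrxn2 3.99 RPKM. Without mouse 7 the mean of Lrrtm2 was 9.18, below that of Lrrtm3 at 10.2, and Nlgn1 had 4.96 and Nlgn3 5.93 RPKM. Levels divide by the exons of all annotated isoforms, so a gene read mostly as a short isoform has a higher true level than given.

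Within each subfamily 1 gene held the largest share of the summed RPKM. Nrxn3 made up 83.0% ± 4.82 of the sum of the 2 neurexins, with 85.6%, 85.3%, 86.2% and 83.5% in mice 7 to 10 and 74.6% in mouse 11. Nlgn2 made up 77.3% ± 4.22 of the neuroligin sum, between 73.6% in mouse 9 and 84.5% in mouse 11. Nlgn1 and Nlgn3 held similar mean shares, 11.5% ± 3.89 and 11.2% ± 2.12. The LRRTMs were more even, with Lrrtm1 at 40.9% ± 10.2, Lrrtm2 at 25.6% ± 8.01, Lrrtm3 at 25.5% ± 3.32 and Lrrtm4 at 8.12% ± 1.33. In mouse 7 the largest share of the LRRTM sum was that of Lrrtm2 (36.3%, against 31.4% for Lrrtm1), while in mouse 11 Lrrtm1 held 58.1% and Lrrtm2 13.7%. The shares do not depend on the library total.

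**Figure D2:**
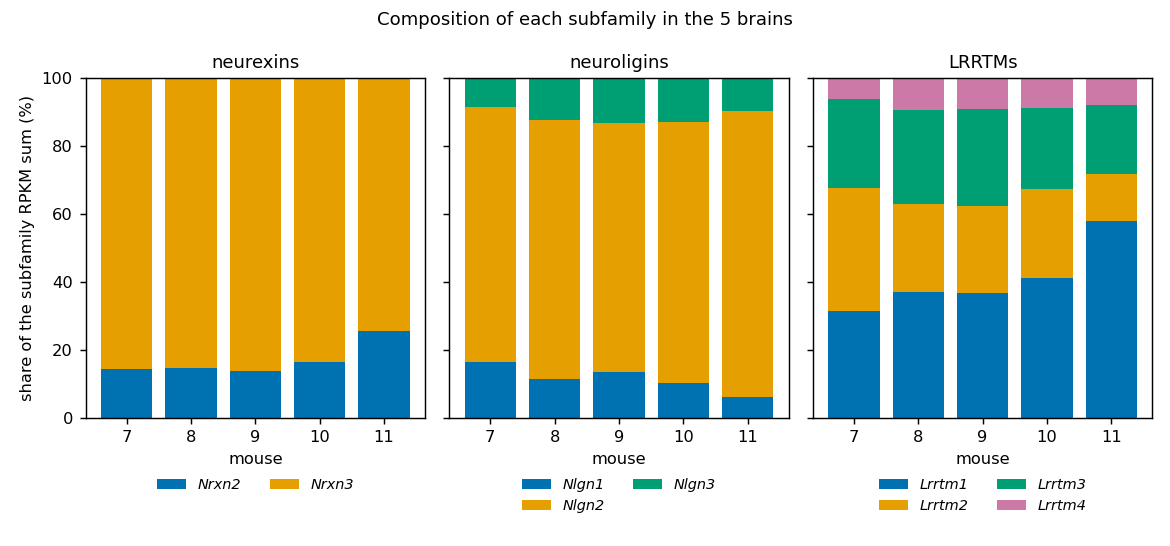
Share of each member (%) in the summed RPKM of its subfamily, 1 bar per mouse. Nrxn3 and Nlgn2 hold most of their sums in all 5 mice, and mouse 11 has the highest shares of Nrxn2 (25.4%), Nlgn2 (84.5%) and Lrrtm1 (58.1%).

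Ratios between members were compared within libraries on the log2(RPKM + 0.1) scale for 13 pairs, with an exact permutation test (two-sided) that flips the signs of the 5 log2 ratios. With 5 mice it cannot give a p below 0.0625, so no pair could pass 0.05. Nlgn2 over Nlgn1 had a mean ratio of 7.0-fold, Nlgn2 over Nlgn3 of 6.88-fold and Nrxn3 over Nrxn2 of 4.94-fold. Lrrtm1 exceeded Lrrtm4 4.87-fold and Lrrtm3 1.58-fold, and Lrrtm2 and Lrrtm3 exceeded Lrrtm4 2.99-fold and 3.09-fold. All 7 of these held in 5 of 5 libraries, with an exact p of 0.0625 each, the smallest possible, and 0.0903 after Benjamini-Hochberg adjustment over the 13. Lrrtm1 over Lrrtm2 was 1.63-fold on average and held in 4 of 5 (exact p = 0.125, adjusted 0.148). For Nlgn1 over Nlgn3 the mean log2 ratio was -0.025 ± 0.61, with an exact p of 0.938, and for Lrrtm2 over Lrrtm3 it was -0.048 ± 0.38, with an exact p of 0.75.

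The summed neuroligins exceeded the summed neurexins measured here 1.83-fold, at 49.7 ± 8.62 against 26.8 ± 0.830 RPKM. The LRRTM sum, 41.9 ± 3.59 RPKM, exceeded that of the neurexins 1.56-fold. Both held in 5 of 5 libraries (exact p = 0.0625, adjusted 0.0903). Neuroligins exceeded LRRTMs 1.18-fold, in 4 of 5 (exact p = 0.125, adjusted 0.148). The neurexin sum was the steadiest, between 26.0 and 27.8 RPKM, although its 2 members moved in opposite directions in mouse 11.

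Whether a member differed between mice more than genes of like abundance was tested in edgeR's quasi-likelihood framework across all 16318 genes. None of the 9 passed an adjusted p of 0.05, where 0.00% of all genes did. The test also called 0 of 9 marker genes of cerebellum, whose median SD of log2 CPM was 1.69. A lack of calls therefore does not show that a member is steady. Of the 9 members, 1 had an unadjusted p under 0.05 in edgeR, against 4.82% of all genes. It was Lrrtm2, with an edgeR p of 0.0343 and an adjusted p of 0.981. Without mouse 7 the edgeR p of Lrrtm2 was 0.117 before adjustment, and its adjusted p over all settings tried lay between 0.175 (no filter on counts) and 0.997 (GC and length trends removed). DESeq2 marked none of the 9 as a dispersion outlier, against 0.30% of all genes. The SD of log2 CPM had a median of 0.33 over the members, from 0.097 in Nrxn3 to 0.54 in Lrrtm2, beside 0.30 over all tested genes. For 4 of the 9 members, Nrxn2, Nlgn2, Nlgn3 and Lrrtm1, 1 mouse lay far from the other 4 (a gap above 0.71 of the range), against 11.2% of all genes. Counting error alone would give a coefficient of variation of 1.48% in Nrxn3 to 5.46% in Lrrtm4, below the observed 8.09% and 9.41%.

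Many members deviated by base composition, most clearly in mouse 11. Mouse 11 held the highest log2 CPM for 4 of 9 members, where 37.6% of all genes were highest, and the lowest for another 4, where 32.7% were lowest. Mouse 7 was lowest for 2, Nlgn3 and Lrrtm4 (25.4% of all genes). Mouse 9 was highest for Nrxn3 and Lrrtm4 (14.1%) and lowest for Nlgn2 (15.4%), and mouse 8 was lowest for Nrxn2 and Lrrtm1 (13.5%) and highest for 0 (12.3%). Nrxn2, Nlgn2 and Lrrtm1, the 3 members with the most G and C (62.4%, 60.7% and 54.7%), deviated by 0.64, 0.60 and 0.60 in mouse 11. Lrrtm2, Nlgn1 and Lrrtm3, with 38.4%, 38.9% and 44.5%, deviated there by -0.77, -0.40 and -0.25. In mouse 7 these last 3 were the highest of the 5 mice, at 0.75, 0.47 and 0.23, where 25.0% of all genes were highest. Lrrtm4 had the least G and C by its longest transcript, 38.4%, but 44.7% in the transcript with its longest coding sequence. It deviated by -0.24 in mouse 7 and by -0.0022 in mouse 11. Across genes, Spearman's rho between GC content and the deviation in mouse 11 was 0.70 over 16264 genes and 0.82 over the 9 members, which share the library and are not independent replicates. In mice 7, 8, 9 and 10 it was -0.41, -0.39, -0.33 and -0.032 over all genes and -0.37, -0.65, -0.53 and -0.25 over the members. These values are not independent, because each gene's deviations are taken from the mean of the same 5 mice. A negative rho in another mouse may therefore mirror the positive one in mouse 11, which was not tested.

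**Figure D3:**
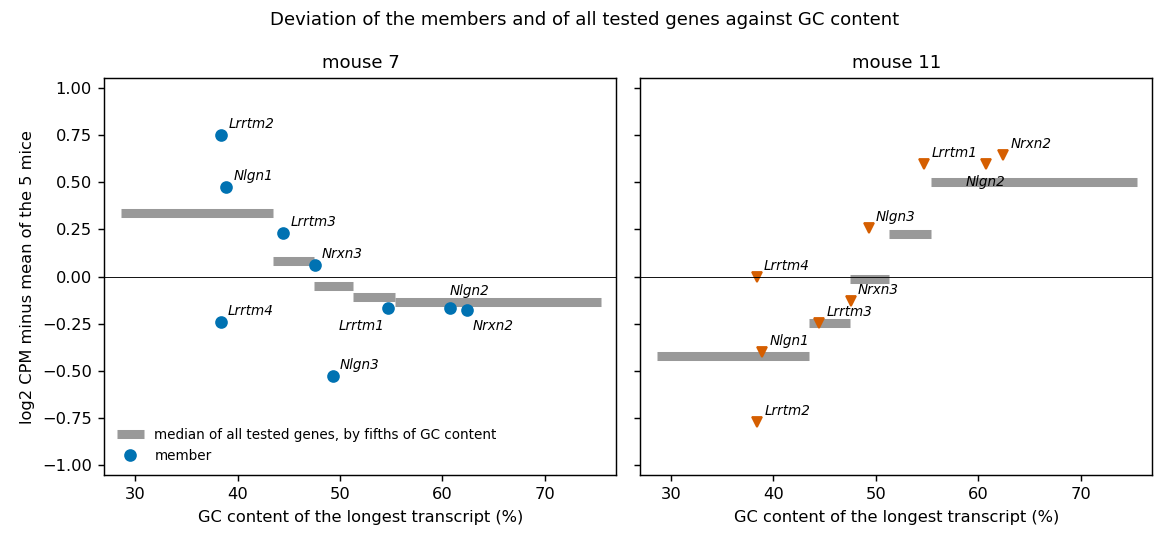
Deviation of log2 CPM from the mean of the 5 mice against GC content of the longest transcript (%), in mice 7 and 11. Coloured symbols are members and grey bars the medians of all tested genes in 5 bins of GC content. In mouse 11 both rise with GC content, apart from Lrrtm4, at -0.0022 beside a grey bar at -0.42. In mouse 7 Nlgn3 (-0.53) and Lrrtm4 (-0.24) lie furthest below their grey bars (-0.052 and 0.34). Lrrtm1, Nlgn2 and Nrxn2 lie slightly below theirs.

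Removing each library's trend on GC content and exon length took most of this pattern away and left another. The deviations of Nrxn2 and Nlgn2 in mouse 11 went to 0.030 and -0.034, and their SDs of log2 CPM from 0.36 and 0.33 to 0.091 and 0.071. Lrrtm1 kept 0.28 in mouse 11, and Lrrtm2 kept 0.33 in mouse 7 and -0.33 in mouse 11. For Nlgn1 the deviations in mice 7 and 11 turned from 0.47 and -0.40 to -0.060 and 0.15. Nlgn3 was nearly unaffected in mouse 7, at -0.53 before and -0.57 after, with 0.37 in mouse 11. Lrrtm4 spread out, to -0.66 in mouse 7 and 0.44 in mouse 11, and its SD rose from 0.14 to 0.41; this used the GC content of its longest transcript, and another transcript was not tried.

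Mouse 7 was then highest for 2 of 9 members (23.1% of all genes) and lowest for 4 (30.1%), and mouse 11 highest for 4 (30.1%) and lowest for 1 (25.6%). Mouse 8 was highest for 0 (12.4%) and lowest for 1 (15.2%), mouse 9 highest for 3 (18.2%) and lowest for 0 (14.1%), and mouse 10 highest for 0 (16.2%) and lowest for 3 (15%).

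With the trends removed the median SD of the members was 0.16, beside 0.23 over all genes. Again 0 of 9 passed the adjusted threshold in edgeR, where 0.00% of all genes did, and 0 reached an unadjusted p under 0.05, against 5.41% of all genes. No member then had a mouse far from the other 4, against 6.77% of all genes. Nlgn3 and Lrrtm4 came nearest, with unadjusted p of 0.0610 and 0.0578 (adjusted p = 0.908 and 0.907). The spread of the log2 ratio between members was smaller for 7 of the 10 pairs of single genes. It dropped from 0.45 to 0.082 for Nrxn2 with Nrxn3 and from 0.62 to 0.15 for Nlgn1 with Nlgn2. For Lrrtm3 with Lrrtm4 it went from 0.28 to 0.45.

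**Figure D4:**
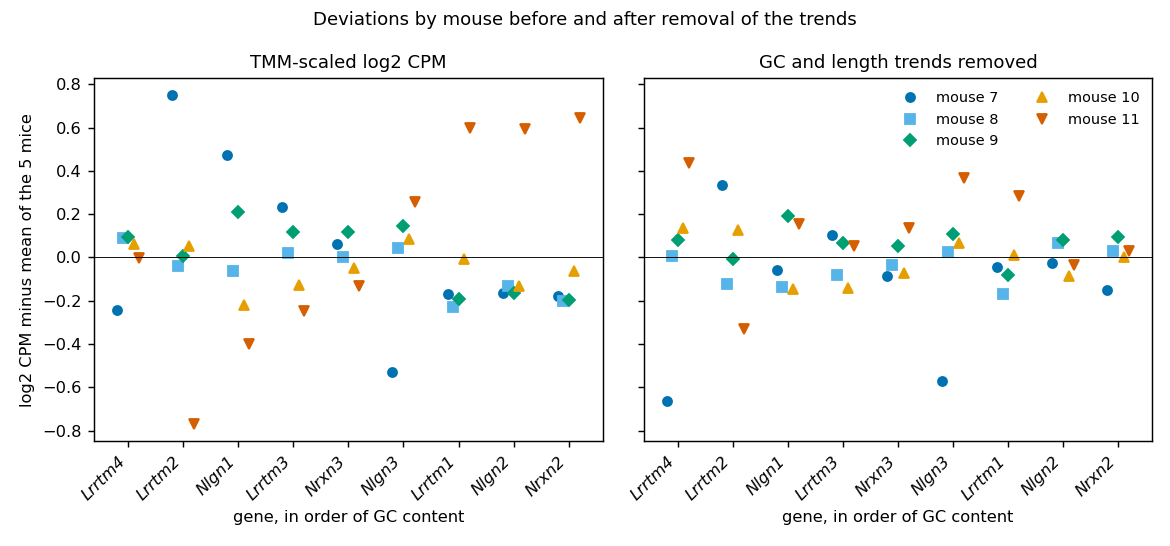
Deviation of log2 CPM from the mean of the 5 mice for each member, in order of GC content; left, TMM-scaled, and right, with each library's GC and length trends also removed. On the right Nrxn2 and Nlgn2 draw together, while Nlgn3 and Lrrtm4 stay or become lowest in mouse 7 and highest in mouse 11.

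The cell types and regions that hold these RNAs were followed by marker lists, given as summed RPKM. All 8 neuron markers were detected in every library, and their sum lay between 1159.6 in mouse 10 and 1259.7 in mouse 7. In bulk RNA, fewer cells of a type and less RNA per cell cannot be told apart. The 6 excitatory neuron markers summed to 623, 638, 762, 739.7 and 1044 RPKM in mice 7 to 11, and the 7 inhibitory neuron markers to 396, 474, 430.4, 444 and 588. Both sums, and that of striatum, were lowest in mouse 7 and highest in mouse 11, as was Nlgn3. No other sum among the 14 marker lists had these extremes. Single markers were mixed: among the 7 inhibitory markers mouse 7 was highest for 2 and mouse 11 lowest for 2. With the trends removed, median deviations in mice 7 and 11 were -0.25 and 0.35 for the excitatory list, -0.21 and 0.17 for the inhibitory, -0.28 and 0.029 for astrocytes and -0.21 and 0.074 for striatum. For neurons they were -0.11 and 0.076, for microglia -0.16 and 0.12, for oligodendrocytes -0.046 and -0.078 and for hippocampus 0.021 and -0.12. Astrocyte markers ranged from 571 to 737 RPKM, those of oligodendrocytes from 764 to 1048, of their precursors from 28.7 to 33.6, of microglia from 204 to 249 and of endothelium from 48.2 to 71.7.

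Of the region lists, the 9 cerebellum markers summed to 23.5, 15.1, 13.7, 48.9 and 19.4 RPKM in mice 7 to 11. Among them Gabra6 and Cbln3 were at 0 in at least 1 library. The lists of striatum (254 to 382 RPKM), hippocampus (56.3 to 77), thalamus (78.2 to 106), hypothalamus (11.3 to 57.2, the widest in ratio) and cortex (84.7 to 95.2) also varied. Mouse 10, highest for the cerebellum list, was highest or lowest for 0 of 9 members, near the shares of all genes (11.1% and 13.1%), and lowest for 3 once the trends were removed. The part of these differences in the members' values was not tested.

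Partners of the members were described in the same way, and none passed the adjusted test. In 7 lists with 90 genes, all tested, edgeR called 0 at an adjusted p of 0.05, DESeq2 marked 0, and 7 had an unadjusted p under 0.05 (7.78%, beside 4.82% of all genes). The median SD of log2 CPM was 0.27, beside 0.30 over all genes, and 0.17 beside 0.23 with the trends removed. After removal of the trends 9 of the 90 had an unadjusted p under 0.05 (10%, beside 5.41% of all genes), more than before. The lists are described by their counts and medians only.

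Neurexin ligands spanned a wide range of levels. Clstn1 (calsyntenin 1) was the highest of the 18 at 296 ± 52.7 RPKM, and Nxph2, a secreted neurexophilin, the lowest at 0.587 ± 0.253. Mouse 11 had the highest level for 10 of the 18 (37.6% of all genes), and mouse 7 the lowest for 7 (25.4%). The list's median deviation in mouse 11 was 0.32, and 0.023 with the trends removed. Among the 8 modulators and proteases, which include the MDGA proteins that block neuroligins, the matrix protease Mmp9 was the least abundant at 0.661 ± 0.284 RPKM. None of these 26 had an unadjusted p under 0.05.

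The presynaptic and postsynaptic scaffolds had median levels of 24.9 and 23.4 RPKM, above 8 of the 9 members. Of 10 presynaptic scaffolds, Epb41l1 had 55.7 ± 6.19 RPKM and Lin7a 8.14 ± 2.92, and 1 had an unadjusted p under 0.05. Of 15 postsynaptic scaffolds, Dlg4 (PSD-95, the main scaffold of excitatory synapses) was the most abundant at 131 ± 25.4 RPKM, and 2 had an unadjusted p under 0.05. Of 25 genes of other synaptic adhesion systems, Cadm3 had 67.7 ± 7.23 and Il1rapl1 2.38 ± 0.916 RPKM, and 4 had an unadjusted p under 0.05. Of all genes 4.82% did. With the trends removed the counts were 0 for presynaptic scaffolds, 2 for postsynaptic scaffolds and 1 for other adhesion systems, against 5.41% of all genes. Of 11 splicing factors acting on neurexin RNA, Rbfox1 had 96.2 ± 13.4 and Khdrbs2 0.991 ± 0.108 RPKM, and 0 had an unadjusted p under 0.05. With the trends removed 4 of these 11 did, against 5.41% of all genes, and the list's median deviation was -0.31 in mouse 7 and 0.28 in mouse 11. Rbfox1, whose p in edgeR was then 0.0324 before adjustment, was among them. The 3 alpha-catenin genes were all lowest in mouse 11 (32.7% of all genes), and 0 had an unadjusted p under 0.05. Once the trends were removed 1 of the 3 did, Ctnna2, with an edgeR p of 0.0295 before adjustment.

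The 7 partner genes with an unadjusted p under 0.05, named after their values were seen, split by GC content. They were picked for their spread in these same libraries, where deviations of all genes went with GC content. The split is therefore not separate support for the pattern of the members. Shank1, Shank3, Lrrc4b, Lrfn1 and Lrfn4, with 61.4% to 65.6% G and C, were highest in mouse 11, as were Nrxn2 and Nlgn2. Lrrc4b, a postsynaptic adhesion protein, reached 74.1 RPKM in mouse 11, beside 28.7 to 36.6 elsewhere. Ppfia2 and Slitrk4, with 40.7% and 34.7%, peaked in mouse 7 and were lowest in mouse 11, like Lrrtm2 and Nlgn1. For Slitrk4 mouse 7 gave 9.65 RPKM and mouse 11 gave 3.21, with mice 8 to 10 between 5.17 and 5.42. With the trends removed the unadjusted p of these 7 genes in edgeR lay between 0.111 and 0.546, while other partners came under 0.05. Dlg4 was one, with an edgeR p of 0.00503 before adjustment, against 0.229 with the trends kept.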

How the data were processed

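The authors deposited whole-number counts per Ensembl gene and RPKM values for 5 libraries of total RNA prepared with an Illumina mRNA kit, per the labels' protocols. The submitters' processing notes name CASAVA 1.7, STAR 2.4.1d, featureCounts 1.4.6-p4 and GRCm38; the annotation release and the strand setting are not given in the sources used here. For all 12729 genes checked, the deposited RPKM fitted the counts only when the 5 library totals were cycled from gene to gene, so RPKM was recomputed with each library's own total and the gene length implied by the deposited values. Symbols, positions and GC content (of the longest transcript) come from GENCODE M21, which matched 47310 genes.

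Variation between mice was tested on counts in edgeR 4.0.16 (TMM scaling, mean count of at least 10, quasi-likelihood fit of an intercept). Each gene's quasi-dispersion was set against an F distribution fitted along mean expression in limma 3.58.1. P-values were adjusted by Benjamini-Hochberg over all 16318 genes and read at 0.05. The script was run on simulated counts with 1 mouse raised in some genes and no GC trend between libraries. The outcome is not given here, so this run does not show how well the test works on these libraries. Log2 CPM used a prior count of 1. Library trends were smooth functions of GC content and log2 exon length (mgcv 1.9.3). DESeq2 1.42.0 gave dispersion outliers and other size factors. A single mouse stood apart where its gap to the next exceeded 0.71 of the range.

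The text names all members, the alpha-catenins, exon-overlapping genes and, of each partner list, any gene called plus the most and the least abundant by mean RPKM; 2 genes under this rule are not reported here. The members and lists were chosen with earlier results of these data known. Counting limits cover counting error only.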

Additional observations from a re-analysis of the deposited data

Results flagged for a closer look

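In 8 of 31 values examined (9 levels, 9 shares and 13 ratios), 1 mouse lay far from the other 4. Chance gives this in about 1 of 20 values that are normally distributed and independent, which these are not. The shares of Nrxn2 and Nrxn3 mirror each other and their ratio follows from them, so the same observation is counted again. Many other values share a gene, and no rate over all genes was computed for shares or ratios. Mouse 11 was the one apart in 7 of the 8. On the log2 CPM scale Nrxn2 was at 6.58 there and at 5.73 to 5.87 in the others, Nlgn2 at 8.38 against 7.62 to 7.65, and Lrrtm1 at 6.26 against 5.44 to 5.66. The shares of Nrxn2 and Nrxn3 in their sum were 25.4% and 74.6% in mouse 11, against 13.8% to 16.5% and 83.5% to 86.2%. The log2 ratio of Nrxn2 over Nrxn3 was -1.54, against -2.61 to -2.32, and that of the summed neurexins over the neuroligins -1.32, against -0.81 to -0.72. Mouse 7 was apart for Nlgn3, at a log2 CPM of 5.13 against 5.70 to 5.91. For log2 CPM, 4 of 9 members had such a mouse, against 11.2% of all genes. With the GC and length trends removed 0 of 9 had one, against 6.77% of all genes.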

How the results depend on the processing

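The count of members called variable was 0 in every setting tried. Over all genes it was 0 (786 at an unadjusted p under 0.05), and it became 230 of 28335 genes with no filter on counts and 49 by DESeq2's outlier mark. With alternatives chosen after seeing the data there were 11 calls without mouse 7 and 2 without mouse 11, each with the GC and length trends removed. Levels and shares moved by less than 1 SD with the deposited RPKM and the annotation's exon lengths. Leaving out 1 mouse cannot move such a mean by 1 SD, so that setting does not test how steady they are. Without mouse 11 the mean of Nlgn2 went from 38.7 to 34.6 RPKM and its SD from 9.14 to 0.727. Of the 13 ratios, 11 kept their direction in every setting; leaving out 1 mouse took the log2 ratio of Nlgn1 over Nlgn3 between -0.27 and 0.14 and that of Lrrtm2 over Lrrtm3 between -0.18 and 0.081 (the latter without mouse 11). The median deviation of the members was -0.16 in mouse 7 and -0.0022 in mouse 11. With the trends removed it was -0.060 and 0.14, and leaving out 1 mouse it lay between -0.21 and -0.016 in mouse 7 (the latter without mouse 11) and between -0.071 and 0.021 in mouse 11. The cause was not tested. Samples could not be paired with each other because all form 1 group. The ratios compared members within each library. Lrrtm4 has the fewest counts and the largest counting error.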
